A study of Mus musculus with 8 samples.

Results

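The flavin-containing monooxygenase genes *Fmo1*, *Fmo2*, *Fmo4* and *Fmo5* were followed in liver RNA-seq of males that lack FXR (the bile acid receptor, gene *Nr1h4*) with or without hepatocyte BCL6 (a transcriptional repressor). The 4 genes were taken by their symbols from the 24940 genes of the count table, and all 4 were among the 12340 genes that passed the expression filter and were tested. All 8 males were of strain C57BL/6, carried 2 floxed *Bcl6* alleles and were homozygous for a whole-body *Fxr* deletion. The 4 FxrKO males carried no Cre, and the 4 Bcl6LKOFxrKO males carried Alb-Cre, a Cre driven by the Albumin promoter that deletes floxed *Bcl6* in hepatocytes. Its action in the other cells of the liver was not measured here. Neither Cre without floxed *Bcl6* nor livers with intact *Fxr* were analysed here, and the labels give no age. The comparison therefore addresses what the loss of hepatocyte *Bcl6*, together with the presence of Alb-Cre, adds to the loss of *Fxr*.

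Flavin-containing monooxygenases are enzymes of the endoplasmic reticulum that hold FAD as a prosthetic group, take electrons directly from NADPH and use molecular oxygen to oxidize nitrogen and sulfur atoms of drugs, dietary amines and small thiols. Unlike the cytochromes P450 they need no separate reductase. FMO1 accepts a wide range of tertiary amines and also oxidizes hypotaurine to taurine, the amino acid to which mouse bile acids are conjugated. FMO2 is best known from lung, FMO4 is a sparsely expressed member of the family, and FMO5 is a hepatic enzyme that is poor on the usual nitrogen and sulfur substrates but inserts oxygen into ketones.

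*Fmo1*, *Fmo2* and *Fmo4* lie on the minus strand of mm10 chromosome 1 within a span of 105 kb, and *Fmo5* lies alone on chromosome 3. The positions in the count table are chr1:162829561-162866610 for *Fmo1* (NM_010231), chr1:162874318-162898493 for *Fmo2* (NM_001360913), chr1:162793883-162812549 for *Fmo4* (NM_144878) and chr3:97628838-97655287 on the plus strand for *Fmo5* (NM_001161765). In GENCODE M21 each has 9 exons, with 532, 535, 560 and 533 codons for *Fmo1*, *Fmo2*, *Fmo4* and *Fmo5*, and no annotated gene overlaps any of them on either strand. The coding sequences are 61.3% to 65.1% identical between members. No stretch of 100 bases, the read length, was shared between a member's transcript and the transcripts of another gene, and the longest run shared by a pair of members was 24 bases. The reads of these genes can therefore be told apart by sequence.

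The stretch that codes for the first glycine-rich loop, the Gly-x-Gly-x-x-Gly motif that binds FAD near the start of the protein, is shown to compare the members at a site that the family shares. Each line gives 30 bases of the coding strand from the GENCODE transcript, with the codons of the 3 glycines in capitals. It starts at base 19 of the coding sequence in *Fmo1*, *Fmo2* and *Fmo4* and at base 22 in *Fmo5*.
*Fmo1*: attgtgGGAgctGGGgtcagcGGCctggcc
*Fmo2*: gtgattGGAgcaGGGgtcagtGGCctaatc
*Fmo4*: gtgattGGAgctGGCgtaagtGGCctgtcc
*Fmo5*: gtaattGGAgcaGGAgctagcGGGctcacc

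Against *Fmo5*, the other members differ at 11 (*Fmo1*), 8 (*Fmo2*) and 9 (*Fmo4*) of these 30 bases. The matching stretch for the second loop, which binds NADPH, begins at base 565 of the coding sequence in *Fmo1*, *Fmo2* and *Fmo4* and at base 568 in *Fmo5*, and the glycine codons of the motif are again in capitals.
*Fmo1*: gtagttGGAatgGGGaattctGGCacagat
*Fmo2*: gtggttGGAataGGAaactcagctgcagat
*Fmo4*: gtggttGGTcttGGAaacactGGCggggac
*Fmo5*: gtaattGGCattGGGaattctGGAggggat

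*Fmo2* has 2 of the 3 motif glycine codons there, and the other 3 members have all 3. These loops are common to the family, and the values below are of transcripts, not of enzyme activity.

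The libraries held 7586241 to 11839503 reads on genes, of which 5428 to 12793 per liver belonged to the 4 members. Levels are given in CPM, the counts of a gene relative to a TMM-scaled library size, and levels of different genes are compared only as CPM per kb of transcript. The threshold for a call was 0.05 on the p of edgeR's quasi-likelihood test, adjusted by Benjamini-Hochberg over all tested genes. The 50 most counted genes took 31.2% to 32.6% of the counts in FxrKO and 41.7% to 45.1% in Bcl6LKOFxrKO livers. *Bcl6* itself was at 56.3, 65.2, 21.2 and 55.6 CPM in FxrKO livers 1 to 4, so that liver 3 lay apart from the others. It was at 4.61 to 11.9 CPM in Bcl6LKOFxrKO livers, in the direction of the labels. Each liver has a number of its own in the labels, and the labels state no pairing. The p-values set the difference between the genotypes against the spread between these livers, taken as unpaired.

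Among the members, *Fmo5* fell, *Fmo4* rose, and *Fmo1* and *Fmo2* did not pass the test. Of all tested genes 29.7% were called, 16.2% higher and 13.5% lower in Bcl6LKOFxrKO livers, against 2 of the 4 members, 1 in each direction. The median absolute log2 fold change was 0.66 for the members and 0.31 for all tested genes. The median of the members lies between the values of *Fmo4* and *Fmo2*, and *Fmo2* was not called. The members were chosen with earlier results of these data known, so these comparisons are a description and were not tested. In a whole-liver sample fewer cells of a type and less RNA per cell cannot be told apart, which holds for every value given here.

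**Figure D1:**
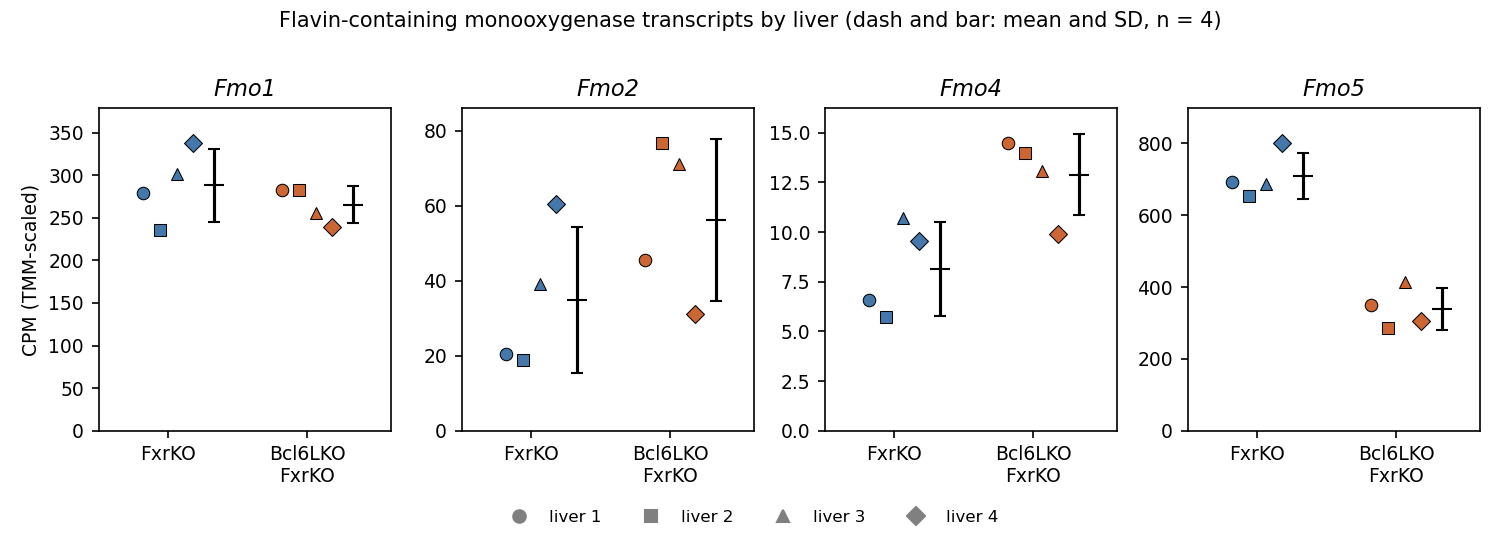
Each panel plots 1 gene in CPM after TMM scaling (vertical axis from 0), with 1 symbol for each liver and a dash and bar for the mean and SD of the 4 livers of a genotype. *Fmo5* lies between 654 and 802 CPM in FxrKO and between 285 and 414 CPM in Bcl6LKOFxrKO livers, while the ranges of the other 3 genes overlap.

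*Fmo5*, the ketone-oxidizing member, was the most counted of the 4 genes in every liver of both genotypes. It was at 693, 654, 687 and 802 CPM in FxrKO livers 1 to 4 and at 351, 285, 414 and 306 CPM in Bcl6LKOFxrKO livers 1 to 4. Every Bcl6LKOFxrKO liver was below every FxrKO liver, a separation that 31.3% of all tested genes showed in one direction or the other. The mean fell from 709 ± 64.2 CPM (SD, n = 4) to 339 ± 57.4 CPM (SD, n = 4). The log2FC (log2 fold change, Bcl6LKOFxrKO over FxrKO) was -1.07 ± 0.14 (SE, 95% interval -1.36 to -0.77, edgeR adjusted p = 9.1e-05), which is 2.09-fold lower, and 90.2% of tested genes had an equal or smaller absolute change. The exact two-sided permutation test on CPM gave p = 0.029, the smallest value that 4 livers against 4 allow. The call was kept in all 15 alternative analyses, with log2 fold changes between -1.22 and -1.0.

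*Fmo4* rose from a low level. It was at 6.56, 5.75, 10.7 and 9.56 CPM in FxrKO livers 1 to 4 and at 14.5, 14, 13.1 and 9.9 CPM in Bcl6LKOFxrKO livers 1 to 4. The groups overlapped in 1 pair of livers, Bcl6LKOFxrKO liver 4 lying below FxrKO liver 3, and the other 15 of the 16 pairs across the genotypes had the higher value in Bcl6LKOFxrKO. The mean was 8.15 ± 2.38 CPM (SD, n = 4) in FxrKO and 12.9 ± 2.06 CPM (SD, n = 4) in Bcl6LKOFxrKO livers. The log2 fold change was 0.65 ± 0.21 (SE, 95% interval 0.20 to 1.10, edgeR adjusted p = 0.0335), or 1.57-fold, and the exact two-sided permutation p was 0.057. The gene was counted with 46 to 144 reads per liver. The call was lost when any 1 of 5 livers was left out (FxrKO livers 1 and 2 and Bcl6LKOFxrKO livers 1, 2 and 3) and with total counts in place of TMM, where the log2 fold change was 0.49 and the edgeR adjusted p 0.0884. The direction was kept throughout.

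*Fmo2*, the member best known from lung, varied most between livers of one genotype. It was at 20.5, 19, 39.1 and 60.6 CPM in FxrKO livers 1 to 4, where the highest was 3.19 times the lowest. In Bcl6LKOFxrKO livers 1 to 4 it was at 45.5, 76.8, 71.2 and 31.2 CPM, a 2.46-fold range. The means were 34.8 ± 19.5 and 56.2 ± 21.5 CPM (SD, n = 4 in each genotype), and the ranges overlapped. At a log2FC of 0.68 ± 0.44 (SE) the difference fell short of the threshold (edgeR adjusted p = 0.286, exact two-sided permutation p = 0.20). Its 95% interval ran from -0.34 to 1.70, so these livers allow a change of either sign and one as large as that of *Fmo5*. Without FxrKO liver 4 the log2 fold change was 1.09 and the edgeR adjusted p 0.0656.

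*Fmo1*, the hypotaurine-oxidizing member, was the steadiest of the 4 across the genotypes. It was at 279, 236, 301 and 338 CPM in FxrKO livers 1 to 4 and at 282, 283, 255 and 239 CPM in Bcl6LKOFxrKO livers 1 to 4. All Bcl6LKOFxrKO values lay inside the FxrKO range. The means were 288 ± 42.8 and 265 ± 21.7 CPM (SD, n = 4 in each genotype), with a log2FC of -0.12 ± 0.13 (SE, edgeR adjusted p = 0.499, exact two-sided permutation p = 0.46). The 95% interval from -0.40 to 0.15 leaves out a change of the size seen for *Fmo5*.

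Within FxrKO, liver 2 had the lowest level of all 4 members, and liver 4 had the highest level of *Fmo1*, *Fmo2* and *Fmo5*. Among Bcl6LKOFxrKO livers, liver 4 had the lowest level of *Fmo1*, *Fmo2* and *Fmo4* but not of *Fmo5*. The SD was 9.05% of the mean for *Fmo5*, 14.8% for *Fmo1*, 29.2% for *Fmo4* and 56% for *Fmo2* in FxrKO livers. In Bcl6LKOFxrKO livers it was 16.9%, 8.19%, 16% and 38.3% of the mean for the same genes.

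**Figure D2:**
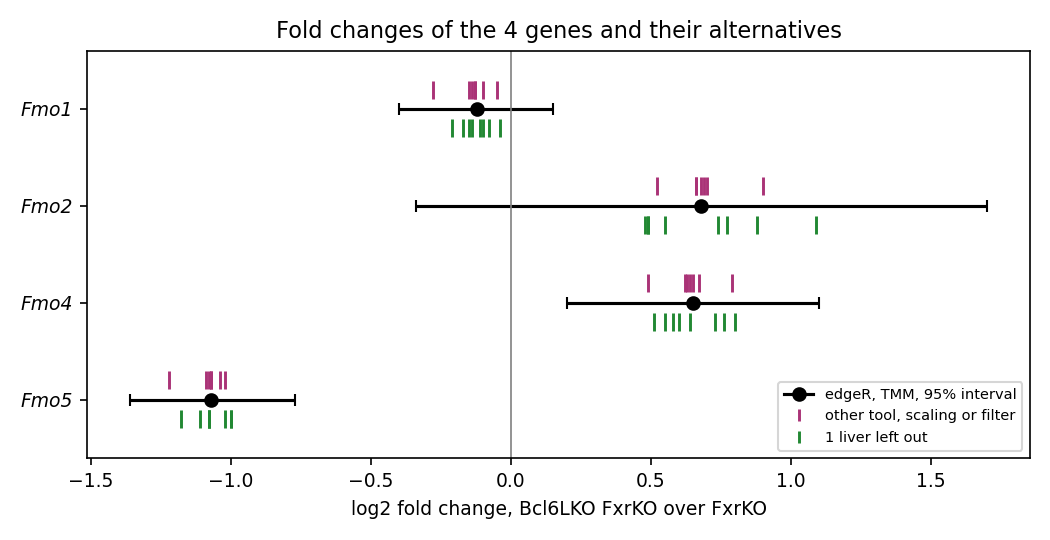
On a horizontal axis of log2 fold change (Bcl6LKOFxrKO over FxrKO livers), black points and bars are the edgeR estimates with 95% intervals, ticks above them other tools, scalings or filters, and ticks below them fits without 1 liver. The interval of *Fmo5* (-1.36 to -0.77) and that of *Fmo4* (0.20 to 1.10) lie on either side of 0, and those of *Fmo1* and *Fmo2* include it.

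The order of the members per kb of transcript differed between the genotypes at its top. In FxrKO livers *Fmo5* was at 134 ± 12.2 CPM per kb and *Fmo1* at 121 ± 18 CPM per kb (SD, n = 4), and these neighbours did not differ beyond their spread. Within single FxrKO livers, *Fmo1* was 0.893, 0.80, 0.972 and 0.936 times *Fmo5* in livers 1 to 4. In Bcl6LKOFxrKO livers the order was turned, with *Fmo1* at 111 ± 9.12 and *Fmo5* at 64.2 ± 10.9 CPM per kb (SD, n = 4), and *Fmo1* was 1.79, 2.21, 1.37 and 1.73 times *Fmo5* in livers 1 to 4. This ratio is taken within each library and does not depend on how the libraries are scaled. It was below 1 in every FxrKO liver and above 1 in every Bcl6LKOFxrKO liver. The ratio does depend on the transcript lengths used, 2377 bases for *Fmo1* and 5275 bases for *Fmo5*. Without division by length, *Fmo5* had more counts than *Fmo1* in every liver of both genotypes.

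*Fmo2* and *Fmo4* followed far below in both genotypes. *Fmo2* was at 8.3 ± 4.65 CPM per kb in FxrKO and 13.4 ± 5.12 in Bcl6LKOFxrKO livers, and *Fmo4* at 4.59 ± 1.34 and 7.24 ± 1.16 (SD, n = 4 in each genotype). The ranges of these neighbours overlapped in both genotypes, although *Fmo2* was above *Fmo4* in all 8 livers. Among all tested genes, the FxrKO level per kb of *Fmo5* and *Fmo1* stood at percentiles 95.8 and 95.4, that of *Fmo2* at 61.1 and that of *Fmo4* at 47.

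Summed over the 4 genes, the level was 269 ± 34.8 CPM per kb in FxrKO and 196 ± 17.2 CPM per kb in Bcl6LKOFxrKO livers (SD, n = 4), with ranges of 231 to 314 and 171 to 210. The share of *Fmo5* in this sum was 47.9% to 53.7% in FxrKO and 27.1% to 37.3% in Bcl6LKOFxrKO livers. *Fmo1* made up 43% to 46.5% and 51.1% to 59.8%, *Fmo4* 1.4% to 2.22% and 3.25% to 4%, and *Fmo2* 1.9% to 4.6% and 4.34% to 9.19%. The shares of *Fmo1*, *Fmo4* and *Fmo5* did not overlap between the genotypes, and that of *Fmo2* did. As shares of one sum they are not independent of each other.

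**Figure D3:**
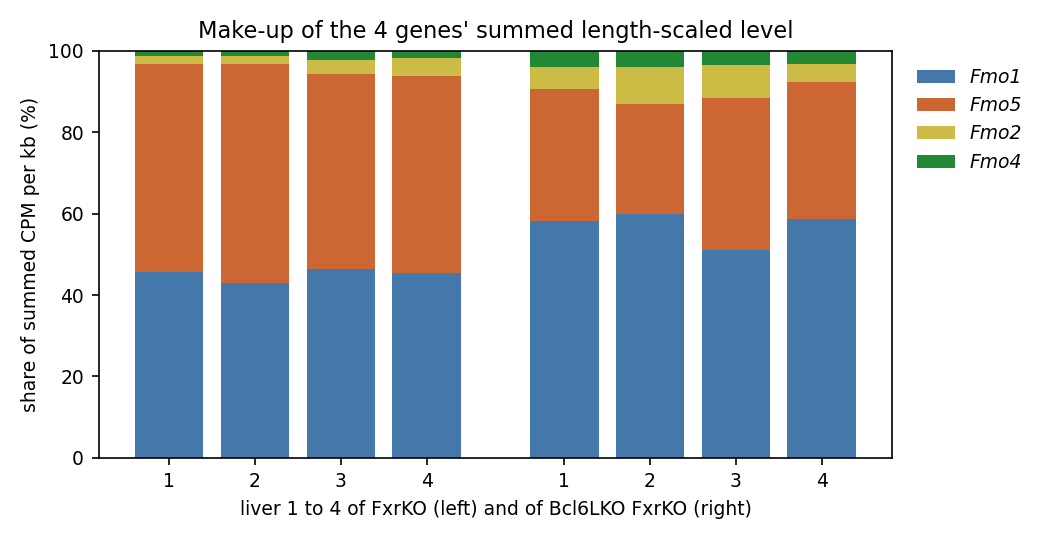
Each bar is 1 liver, and its segments are the percentages of the 4 genes in their summed CPM per kb. The *Fmo5* segment takes 47.9% to 53.7% of the bar in FxrKO livers and 27.1% to 37.3% in Bcl6LKOFxrKO livers.

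The nearest genes outside the family were read as a description of the 2 loci. *Prrc2c*, 53.3 kb from the chromosome 1 members on the side of *Fmo4*, had a log2FC of -0.07 (edgeR adjusted p = 0.77). *Mroh9*, on the other side, had 0 counts in all 8 livers. Beside *Fmo5*, *Prkab2* (2.92 kb away, a regulatory subunit of AMP-activated kinase) was at 2.91 and 3.34 CPM in FxrKO and Bcl6LKOFxrKO livers (edgeR adjusted p = 0.612). *Chd1l* (18.6 kb away, a chromatin remodeller) rose with a log2FC of 0.58 (edgeR adjusted p = 0.0143), against the fall of *Fmo5*.

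RefSeq promoter windows of 300 bases (GRCm38.p6) were searched for *Fmo2*, *Fmo4* and *Fmo5* on both strands for TTCNNNGAA, the letters shared by STAT and BCL6 sites, and for AGGTCA, the core letters bound by many nuclear receptors. The window of *Fmo5*, the member that fell, held neither, and that of *Fmo4*, the member that rose, held 1 AGGTCA and no TTCNNNGAA. The *Fmo5* window, chr3:97628769-97629068, begins only shortly before the start of the counted transcript at 97628838. Little of the sequence upstream of that start was therefore searched. *Fmo1* was not searched. Of the 2 windows of *Fmo2*, 1 held a match to each and 1 held none. Over all 32851 windows, 8.3% held TTCNNNGAA and 16.3% held AGGTCA. These matches describe the letters of the windows only, and no binding was measured in these livers.

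The genes whose levels followed each member most closely over the 8 livers were found by the root mean square distance of log2 CPM centred on each gene's mean. The search covered 9058 genes with a mean of at least 50 counts, after *Fmo* genes and genes with predicted or clone symbols were left out. For *Fmo5* they were *Abcg2* (an efflux transporter), *Ugt2b5* (a UDP-glucuronosyltransferase with close copies) and *Hpgd* (which oxidizes prostaglandins), at distances of 0.10, 0.11 and 0.12 against a median of 0.59 over all these genes. The distance takes in the genotype difference, so the genes nearest to a member share its change, or lack of it, through their selection. *Abcg2* went from 89.4 to 43.7 CPM, *Ugt2b5* from 822 to 385 and *Hpgd* from 90.6 to 44. For *Fmo4* they were *Neb* (the muscle protein nebulin), *Thrsp* (a regulator of lipid synthesis) and *Itga8* (an integrin subunit), at 0.12, 0.14 and 0.17 against a median of 0.52. For *Fmo1* the nearest were *Sar1a*, *Dync1li1* and *Ube2a*, which serve vesicle budding, dynein transport and ubiquitination, at 0.06, 0.06 and 0.07 against a median of 0.29. No gene was as close to *Fmo2*, whose nearest were *Cped1*, *Trim30d* and *Upp2* at 0.36, 0.37 and 0.37 against a median of 0.77. *Upp2* encodes a liver uridine phosphorylase.

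Genes that serve or share the chemistry of these enzymes were taken from 7 lists with 72 genes, of which 64 were tested. In all 8 rose and 19 fell, so that 42.2% were called, against 29.7% of all tested genes. The lists were chosen with earlier results of these data known, so these shares are a description, and their difference was not tested. Their median log2 fold change was -0.12, and that of all tested genes was 0.01.

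Taurine synthesis and bile acid conjugation, to which FMO1 contributes by oxidizing hypotaurine, had 9 tested genes, of which 1 rose and 2 fell. *Csad*, the decarboxylase that makes hypotaurine, rose from 193 ± 40.7 to 640 ± 102 CPM (SD, n = 4), a log2FC of 1.73 (edgeR adjusted p = 1.06e-05). *Cdo1*, the dioxygenase before it, was at 1290 ± 64 and 1520 ± 124 CPM (SD, n = 4) and did not pass (edgeR adjusted p = 0.142). *Baat* and *Slc27a5*, which join bile acids to taurine by way of the acyl-CoA, fell with log2FC values of -0.73 and -0.49 (edgeR adjusted p = 0.000782 and 0.00376). Between the rise of *Csad* and the fall of these conjugating enzymes, *Fmo1* had no call.

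The cofactors were served by 2 lists. Of 5 tested genes for riboflavin uptake and FAD synthesis, none rose and 1 fell. This was *Slc25a32*, a mitochondrial carrier of folate and FAD (log2 fold change -0.72, edgeR adjusted p = 0.0153), while the riboflavin kinase *Rfk* and the FAD synthase *Flad1* were not called, at 0.11 and -0.22. The list also counts *Acp6*, a lysophosphatidic acid phosphatase whose place there is uncertain (log2FC -0.02, not called). Of 10 genes that supply NADPH, 3 rose and 2 fell. *Pgd* of the pentose phosphate pathway rose by 1.07 and *Taldo1* by 0.52 on the log2 scale (edgeR adjusted p = 5.2e-05 and 0.0121), and malic enzyme *Me1* and the folate enzyme *Mthfd1* fell with log2FC values of -0.51 and -0.37 (edgeR adjusted p = 0.0175 and 0.0205).

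Microsomal electron transfer, which the cytochromes P450 need and flavin-containing monooxygenases do not, had 7 tested genes with 1 rise and 1 fall. *Cyb5r3*, the cytochrome b5 reductase, rose by 0.71 on the log2 scale (edgeR adjusted p = 0.00426). The fall was that of *Cyb5b*, with a log2FC of -0.35 (edgeR adjusted p = 0.0335). *Cyb5b* is the outer mitochondrial cytochrome b5 and is counted here only as the list held it. The P450 reductase *Por* was at 460 ± 127 and 526 ± 161 CPM (SD, n = 4) and was not called (edgeR adjusted p = 0.567).

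Of 19 other tested FAD-dependent oxidases and monooxygenases 3 rose and 6 fell, and the summed level of the list was 2930 to 3720 CPM in FxrKO and 2080 to 2170 CPM in Bcl6LKOFxrKO livers. The largest part of that sum in both genotypes was *Sardh*, which fell from 1270 ± 183 to 632 ± 53.3 CPM (SD, n = 4; edgeR adjusted p = 0.000109). *Kmo*, the kynurenine monooxygenase, fell from 291 ± 14.8 to 94.4 ± 24.6 CPM and *Pipox*, the pipecolic acid oxidase, from 291 ± 30.7 to 103 ± 10.6 CPM (SD, n = 4; edgeR adjusted p = 8.66e-06 and 1.7e-06). *Smox*, the spermine oxidase, rose by 1.66 on the log2 scale, and *Renbp*, a renin-binding epimerase, by 1.28 (edgeR adjusted p = 0.00019 and 0.00124). *Renbp* is not a flavin enzyme and is counted here only as the list held it.

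Of 5 tested genes for the reduction of N-oxides and N-hydroxy compounds and for aldehyde oxidation, 3 fell and none rose. *Aox3*, an aldehyde oxidase, and *Xdh*, xanthine dehydrogenase, fell with log2FC values of -1.33 and -0.75 (edgeR adjusted p = 0.000319 and 0.000372). Of 9 tested genes for methylation of sulfur and nitrogen and for sulfoxide reduction, 4 fell and none rose. *Tpmt*, the thiopurine methyltransferase, and *Mettl7a1*, a thiol methyltransferase, fell with log2FC values of -1.75 and -0.90 (edgeR adjusted p = 6.71e-06 and 8.56e-05).

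**Figure D4:**
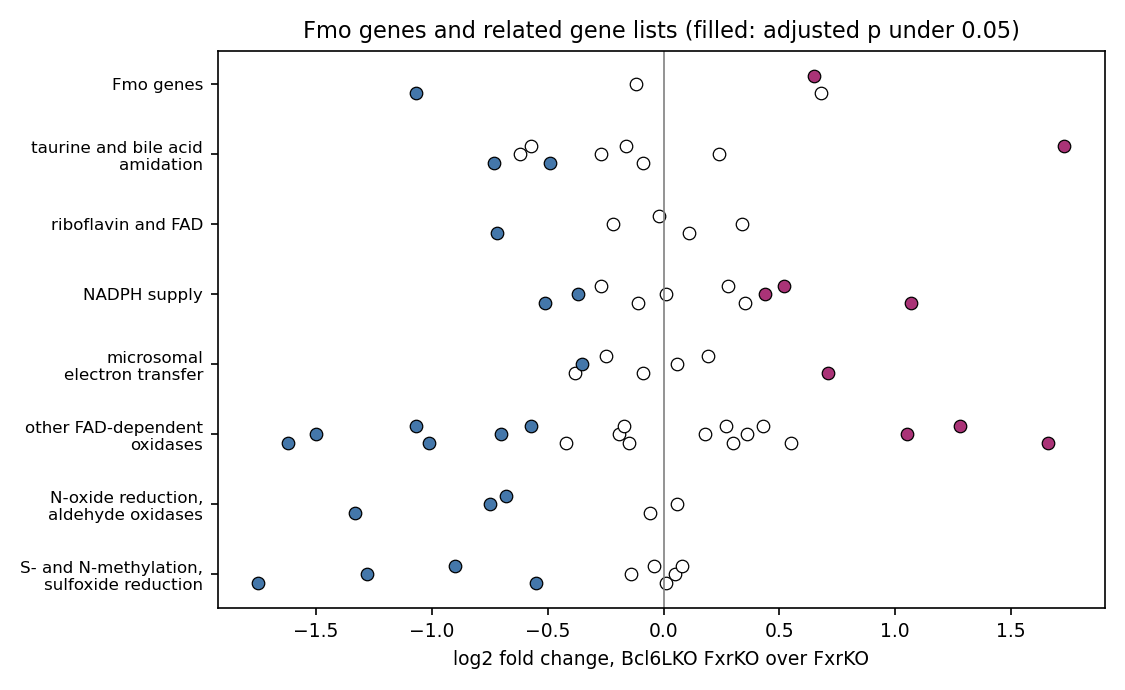
Each point is the log2FC of 1 tested gene (Bcl6LKOFxrKO over FxrKO livers), in a row for each list, filled where the adjusted p from edgeR was under 0.05. The Fmo row holds 1 filled point on each side of 0. The lists of riboflavin and FAD (1 filled point), of N-oxide reduction and of methylation hold filled points at negative values only.

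Markers of other liver cell types were called higher in part, against 16.2% of all tested genes. Of 8 stellate cell and fibroblast markers 5 were called higher and none lower, and their summed level was 220 to 299 CPM in FxrKO and 443 to 531 CPM in Bcl6LKOFxrKO livers. Of 6 sinusoidal endothelial markers 1 was called higher (129 to 173 and 165 to 230 CPM in sum), and of 6 macrophage markers 1 was called higher (307 to 421 and 382 to 709 CPM). Of 4 tested cholangiocyte markers 2 were called higher, with 41.5 to 65.7 and 74.1 to 134 CPM over the list. Most of that sum was *Spp1*, with means of 43.4 and 87.2 CPM. *Sox9* of the same list went the other way without a call (log2FC -0.81, edgeR adjusted p = 0.0773). None of the T cell markers was tested, and the highest count of any of them in a liver was 18 reads. Their summed level was 1 to 1.23 CPM in FxrKO and 2.55 to 4.18 CPM in Bcl6LKOFxrKO livers. These ranges did not overlap, and nor did those of the stellate cell and fibroblast, cholangiocyte and hepatocyte lists. Of 4 mesothelial markers 1 was tested and not called (0.625 to 4.41 and 1.09 to 3.36 CPM in sum). No listed marker found in the table was at 0 in every liver. The 6 hepatocyte markers went both ways, 2 higher and 1 lower, with a sum of 52800 to 64700 and 144000 to 161000 CPM that *Alb* dominated. The part of these markers in the rise of *Fmo4* or the fall of *Fmo5* was not tested. Bcl6LKOFxrKO liver 4, with the lowest *Fmo2* and *Fmo4* of its genotype, had 456 CPM of stellate cell and fibroblast markers, within the range of the other 3. The same liver had the highest sums of its genotype for macrophage (709 CPM against 382 to 447 CPM in the other 3), sinusoidal endothelial (230 CPM) and T cell markers (4.18 CPM).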

How the data were processed

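Liver RNA of 4 FxrKO and 4 Bcl6LKOFxrKO males was sequenced as 100 bp single-end reads from a stranded polyA kit. The authors used STAR 2.5.2 on mm10, accepting only uniquely placed reads. The deposited values are unnormalized exon counts made with HOMER 4.10, in which a gene is represented by a single transcript, whose length is also given. The command names no strand option. Counts were tested in R 4.3.3 with edgeR 4.0.16 (filterByExpr, TMM, robust quasi-likelihood fit, Benjamini-Hochberg over 12340 genes), a script first tested on simulated data. The study's methods name DESeq2, which was an alternative (1.42.0) beside limma 3.58.1 voom. Permutation tests were exact over 70 orderings. *Fmo4* had the fewest reads of the members (46 to 144 per liver), and *Fmo2* had the largest standard error. Within-genotype pairs of livers differed by more than sampling noise (chi-square per degree of freedom 10.8 to 50). Identities were computed with Biopython 1.88 on GENCODE M21 transcripts. For *Fmo2*, the longest coding transcript was used. The members and lists were chosen with earlier results of these data known. Genes named were the members, *Bcl6*, at most 2 called genes in each direction per list with the smallest adjusted p, the 3 nearest genes by distance and the flanking genes. *Cdo1*, *Rfk*, *Flad1*, *Acp6*, *Por*, *Sardh*, *Spp1* and *Sox9* were named in addition, after their values were seen. Alternatives were DESeq2, voom, other size factors, total counts, other filters, an added fold threshold and each liver left out.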

Additional observations from a re-analysis of the deposited data

How the results depend on the processing

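No paired analysis was possible because the labels pair no livers across the genotypes. *Fmo1*, *Fmo2* and *Fmo5* kept direction and side of the threshold in all 15 alternatives each. Their log2 fold changes ran from -0.28 to -0.04, from 0.48 to 1.09 and from -1.22 to -1.0. *Fmo4* kept its direction and was called in 9 of 15. With total counts alone its log2 fold change was 0.49 (edgeR adjusted p = 0.0884, unadjusted p = 0.0379), which left 0 members called higher (1 at an unadjusted p under 0.05, and 1 called each by DESeq2 and limma voom), and the median gene moved by -0.16 in log2. Across the fits without 1 liver it ran from 0.51 to 0.80, with an adjusted p of 0.0158 to 0.0993, so that 0 or 1 member was called higher. With total counts alone, 2949 genes were called lower, against 1665 with TMM, and 32.3% of called genes were higher, against 54.5%. The counts of called genes under the other alternatives stayed within 1.5 times the main ones. Shares by counts, without division by length, were 27.7% and 39.6% for *Fmo1*, 0.777% and 1.91% for *Fmo4* and 68.3% and 50.2% for *Fmo5* in FxrKO and Bcl6LKOFxrKO livers, moved from those per kb by more than 1 SD by the division itself. Each fit without 1 liver has fewer livers, and the cause of the lost *Fmo4* calls was otherwise not tested.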
